A study of Sus scrofa with 12 samples.

Results

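Genes of glycolysis, pyruvate handling, the citrate cycle and the pentose phosphate pathway were followed in pig embryos with and without knockdown of CCNB2, the gene for cyclin B2. The set was a list of 48 gene symbols, chosen by pathway with earlier results of these data known, and its members were the rows of the deposited count table with those symbols. The table of 29329 genes held 44 of the 48, and 43 of these were among the 17995 genes with enough counts to be tested. The glucose transporter SLC2A3, lactate dehydrogenase LDHA, monocarboxylate transporter SLC16A1 and mitochondrial pyruvate carrier MPC1 had no row under their symbol and were not analysed here. The enolase ENO2 was in the table but was not tested, with at most 16 counts in a library.

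Embryos made by in vitro fertilisation were pooled for SMART-seq, in which polyadenylated RNA is copied into cDNA and amplified by PCR before sequencing. The 12 libraries formed 4 groups of 3. Con-2c and con-4c were blank control embryos, and si-2c and si-4c were embryos given si-CCNB2, a short interfering RNA against CCNB2. The groups were taken from the sample titles, where 2c and 4c give the stage. The tissue labels stated the other stage in all 12 libraries, so that libraries titled 2c were labelled as 4-cell embryos and those titled 4c as 2-cell embryos. Exchanging the stages in all 12 libraries would turn the sign of every difference between 4c and 2c. It would leave each comparison of si with control libraries of 1 title stage in place. Exchanging them in the control or the si libraries alone would make those comparisons differ in stage as well as in treatment. Which of these holds, if any, was not tested. The labels call the controls blank, while the study's methods call them normal embryos and also the negative control group of si-CCNB2, and describe injecting negative controls at volumes kept close to those of the siRNAs. These sources differ on whether the controls received a control siRNA. If they did not, the knockdown and the injection cannot be told apart. The labels did not say that the 3 libraries of a group came from separate cultures, and p-values therefore measured the spread between these libraries only. Levels were shares of the RNA of a pool, in which fewer cells of a type and less RNA per cell cannot be told apart.

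Glycolysis breaks glucose down to pyruvate in the cytosol, first spending ATP in the preparatory steps and then gaining it in the payoff steps. Pyruvate is either reduced to lactate or carried into mitochondria, where the pyruvate dehydrogenase complex converts it to acetyl-CoA for the citrate cycle, and kinases (PDK) and phosphatases (PDP) switch that complex off and on. Cleavage-stage mammalian embryos are known to draw energy mainly from pyruvate and to raise their use of glucose later, while they pass from RNA stored in the oocyte to RNA made by their own genome.

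Library totals ran from 27785233 to 39510908 counts. Levels are given as CPM, a gene's counts relative to its library's total after that total was scaled by edgeR's TMM factor, with the SD over 3 libraries where a mean is given. A gene passed the test at an adjusted p below 0.05 (edgeR's quasi-likelihood test, Benjamini-Hochberg adjustment over 17995 genes), and was called when it also differed by at least 2-fold (log2 fold change of 1 or more in size). CCNB2 itself averaged 464 CPM in con-2c and 42.6 in si-4c, against 475 in con-4c and 22.7 in si-2c, with log2 fold changes of -4.36 for si-2c against con-2c (adjusted p = 1.53e-12) and -3.48 for si-4c against con-4c (adjusted p = 5.14e-12). The treatment labels were thus matched by the targeted gene.

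Replicate 3 of si-2c differed from the other si-2c libraries by a chi-square per degree of freedom of 37.8 and 38.7, against 12.1 between those, and replicate 3 of con-2c by 25.4 and 30.5, against 15.1. Without replicate 3 of con-2c, ALDOA and PKM lost their si-2c call against con-2c and PGAM1 and PFKM gained one, and without replicate 3 of si-2c OGDH was called in place of PKM. Other counts are given with them left out where they moved by over 1.5 times. The libraries fell into pairs of groups on several measures. Between 18034 and 18819 genes had a count in con-2c and between 18083 and 18231 in si-4c, against 21181 to 21647 in con-4c and 22105 to 23279 in si-2c. The summed level of 14 of 15 listed oocyte markers was 8614 to 9374 CPM in con-2c and 8446 to 8905 CPM in si-4c, against 5750 to 6239 CPM in con-4c and 5429 to 5717 CPM in si-2c. No oocyte marker was at 0 in all libraries of a group. The sum of 13 of 17 listed cumulus and granulosa markers was 291 to 370 CPM in con-2c, 176 to 188 in con-4c, 171 to 198 in si-2c and 293 to 301 in si-4c, nearly all of it VCAN, and FOXL2 and CYP11A1 were at 0 in every library outside con-4c, where they reached 0.066 CPM. Other members of the cumulus list did not follow its sum. Of 7 tested, 1 was called higher and 0 lower in con-4c against con-2c (GJA1, at most 16 counts in a con-4c library) and GJA1 and PTX3 were called higher in si-2c. These were 14.3% and 28.6% called higher, beside 14.4% and 10.7% of all genes. The sum of 13 of 20 listed sperm markers, mostly LDHC and ODF2, lay between 55.7 and 69.1 CPM in the 12 libraries. Of 6 tested, however, AKAP3, AKAP4 and HSPA1L were called higher in both con-4c and si-2c against con-2c, and lower in the comparison of si-4c with con-4c. Each time these were 50% of those tested, beside 14.4%, 10.7% and 15.8% of all genes. HSPA1L averaged 5.52 CPM in con-4c and 4.54 in si-2c against 0.289 in con-2c and 0.0386 in si-4c, and the other 2 stayed below 0.7 CPM on average. The called markers and the oocyte and VCAN levels moved with the same groups as the genes below, and their part in the differences was not tested.

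Between the control groups, single genes of each pathway rose from con-2c to con-4c while others of the same pathways did not pass or fell. In the payoff steps of glycolysis 2 of 5 tested genes passed the test, and in the citrate cycle 7 of 13 rose and 2 fell. The 8 members called higher in con-4c than con-2c were HK2, ALDOA, PGAM1, PKM, IDH3B, OGDH, FH and TALDO1, 18.6% of the 43 tested, beside 14.4% of all genes. The 3 called lower were PDK4, MDH1 and PGD, 6.98% of the 43, beside 3.25% of all genes. At any fold, 15 members rose (34.9%, beside 20.7% of all genes) and 9 fell (20.9%, beside 15.1%), and 55.8% of members passed the test in 1 direction or the other, beside 35.8% of all genes. The members had more reads behind them than most genes, with a median of 289 counts per library against 97.2 over all genes tested, and the part of that depth in the larger share was not tested. The median log2 fold change was 0.27 over the members and 0.11 over all genes tested.

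In the embryos given si-CCNB2, the members that differed from control, and their directions, were not alike under the 2 title stages. In si-2c, ALDOA, TPI1 and PKM were called higher than in con-2c (6.98% of members, beside 10.7% of all genes) and PDK4 and MDH1 lower (4.65%, beside 1.8%). In si-4c, PDHX and MDH1 were called higher than in con-4c (4.65%, beside 3.12%), and HK2, ALDOA, PGAM1, PKM, IDH2, IDH3B, FH and TALDO1 lower (18.6%, beside 15.8%). At any fold, 11 members rose and 6 fell in si-2c (25.6% and 13.95%, beside 16.6% and 12.3% of all genes), and 9 rose and 15 fell in si-4c (20.9% and 34.9%, beside 15.1% and 21.7%). The median over the members was 0.07 in si-2c, beside 0.12 over all genes, and -0.18 in si-4c, beside -0.11. These comparisons share control libraries with the one between con-4c and con-2c, so the values are given side by side and their likeness is not a result.

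**Figure D1:**
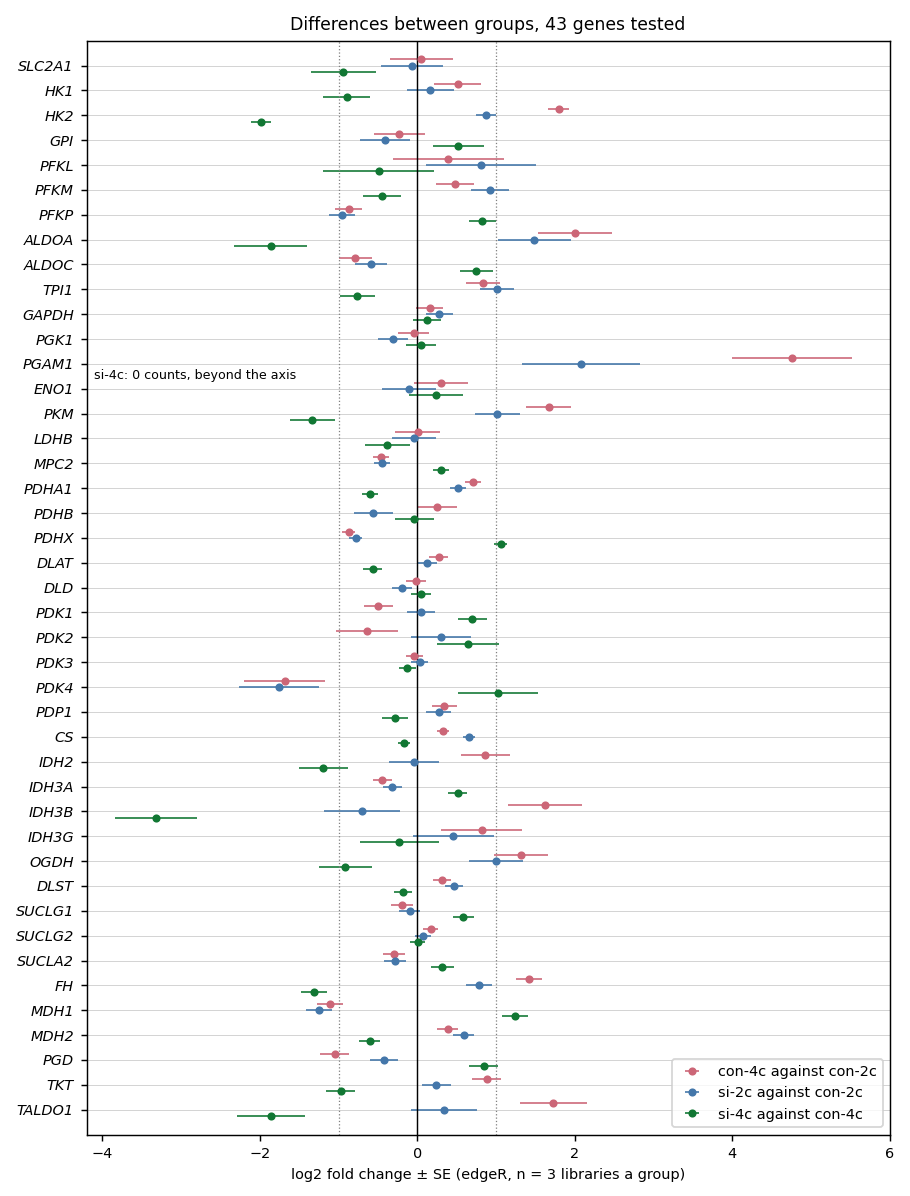
Log2 fold change with its standard error (x axis, edgeR, 3 libraries a group) of the 43 genes tested (y axis, in the order of the pathway) for con-4c against con-2c (red), si-2c against con-2c (blue) and si-4c against con-4c (green), with dotted lines at a 2-fold difference. HK2, at 1.79, 0.87 and -1.98, and MDH1, at -1.11, -1.25 and 1.24, lie on opposite sides of 0 in each comparison, and the si-4c value of PGAM1, which had 0 counts there, lies beyond the axis.

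The scaling bore on these values. With library totals in place of TMM factors, the median of all genes moved by 0.27, 0.39 and -0.26 on the log2 scale in the 3 comparisons just given, and the difference between the medians of members and of all genes changed by less than 0.01. All 15 members that rose in con-4c, all 11 that rose in si-2c and all 15 that fell in si-4c also passed in the same direction with library totals. Of the 9 that fell in con-4c, MPC2, PDK1, ALDOC and IDH3A did not pass with library totals. The same held for MPC2 and ALDOC among the 6 that fell in si-2c, and for MPC2, SUCLG1, PDK1, ALDOC and IDH3A among the 9 that rose in si-4c. None of these members changed direction in those 3 comparisons. Members that passed with library totals and not with TMM factors were PDP1, SUCLG2, DLAT and PFKM, higher in con-4c. In si-2c they were GAPDH, PDP1, PGAM1, SUCLG2, PDK3, DLAT and TKT, all higher. In si-4c they were DLST, PDP1, SUCLG2, PDK3, PFKM, CS and SLC2A1, all lower. Where a gene is said below to pass no comparison, this refers to TMM factors and all 12 libraries. Leaving out each library in turn, 11 of the 15 that rose in con-4c passed every time (not IDH2, DLST, IDH3B and MDH2), as did 6 of the 9 that fell (not PDK4, PDK1 and IDH3A). In si-2c these were 8 of 11 (not PKM, OGDH and ALDOA) and 4 of 6 (not PDK4 and ALDOC), and in si-4c 7 of 9 that rose (not MPC2 and ALDOC) and 12 of 15 that fell (not TPI1, HK1 and OGDH).

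Glucose entry and its first phosphorylation differed in which gene moved. SLC2A1, a facilitative glucose transporter of the cell membrane, averaged 2.14 ± 0.47 CPM in con-2c and 1.15 ± 0.24 in si-4c. Its means were 2.05 ± 0.83 in si-2c and 2.22 ± 1.17 in con-4c, and it passed no comparison. With library totals, the si-4c level was over 2-fold below that of con-4c (-1.21, adjusted p = 0.0313) and si-2c (-1.22, 0.0298). The other pairwise comparisons of SLC2A1 did not pass with that scaling. Without replicate 3 of con-4c and with TMM factors, si-4c differed from con-4c by -1.23 (adjusted p = 0.0320). HK2 (Sscrofa11.1, chr3:68155656-68231187) encodes hexokinase 2, which traps glucose in the cell as glucose 6-phosphate. Its levels were 10.98, 13.6 and 11.3 CPM in con-2c and 10.9, 11.97 and 8.63 in si-4c, against 39.4, 43.02 and 42.1 in con-4c and 21.3, 22.7 and 21.5 in si-2c. Each con-4c library was above each si-2c library, and these in turn were above all libraries of con-2c and si-4c, which overlapped. HK2 rose by 1.79 ± 0.13 (SE) from con-2c to con-4c (adjusted p = 1.07e-08) and was higher in si-2c than in con-2c by 0.87 (adjusted p = 6.22e-05). It fell by 1.98 ± 0.13 from con-4c to si-4c (adjusted p = 3.27e-09). HK1, the other hexokinase listed, averaged 2.097 CPM in con-2c and 1.60 in si-4c against 2.35 in si-2c and 2.99 in con-4c, and of the pairwise comparisons it passed only si-4c against con-4c, at -0.90 (adjusted p = 0.0263).

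The next steps convert glucose 6-phosphate to the triose phosphates. GPI, the isomerase that makes fructose 6-phosphate, averaged 2.34 to 3.82 CPM over the 4 groups and passed no comparison. Of the 3 phosphofructokinase subunits, which set the committed step of glycolysis, PFKP averaged 12.6 CPM in con-2c and 12.2 in si-4c against 6.50 in si-2c and 6.90 in con-4c, and it fell by 0.87 in con-4c and by 0.96 in si-2c against con-2c and rose by 0.83 from con-4c to si-4c (adjusted p from 0.000331 to 0.000954). The muscle-type subunit PFKM was highest in si-2c, at 7.31 ± 0.67 CPM against 3.85 ± 0.75 in con-2c (log2 fold change 0.92, adjusted p = 0.00709), and its con-4c level of 5.37 ± 1.69 CPM did not pass against con-2c (adjusted p = 0.134). PFKL stayed at 0.326 to 0.615 CPM on average and passed no comparison.

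The aldolases, which split fructose 1,6-bisphosphate, moved in opposite directions. ALDOA (chr3:18246036-18260167) had 0.923, 0.535 and 0.338 CPM in con-2c and 0.270, 0.896 and 0.806 in si-4c, against 2.304, 2.88 and 2.02 in con-4c and 2.02, 1.5 and 1.52 in si-2c. All libraries of con-4c and si-2c were above all libraries of con-2c and si-4c. ALDOA rose by 2.00 ± 0.47 in con-4c (adjusted p = 0.00285) and by 1.49 ± 0.46 in si-2c (adjusted p = 0.0230) against con-2c, and fell by 1.86 ± 0.46 from con-4c to si-4c (adjusted p = 0.00443). The si-2c call was lost without replicate 2 of con-2c (adjusted p = 0.0751), replicate 3 of con-2c (0.0861) or replicate 1 of si-2c (0.0831). ALDOC averaged 10.8 CPM in con-2c and 10.5 in si-4c, against 6.23 in con-4c and 7.13 in si-2c, falling by 0.79 in con-4c and by 0.59 in si-2c and rising by 0.75 from con-4c to si-4c, all under 2-fold.

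TPI1 (chr5:63839473-63842853), which interconverts the triose phosphates, had 3.69, 3.98 and 4.80 CPM in con-2c and 4.77, 3.90 and 4.45 in si-4c, against 8.52, 7.95 and 5.75 in con-4c and 8.11, 10.7 and 6.42 in si-2c. Every library of con-4c and si-2c lay above every library of con-2c and si-4c. It rose by 0.83 in con-4c (adjusted p = 0.00669) and by 1.01 in si-2c (adjusted p = 0.00195) against con-2c, and fell by 0.76 from con-4c to si-4c (adjusted p = 0.0116). The si-2c value stood at the 2-fold limit and was 0.93 without replicate 1 of con-2c, 0.98 without replicate 2 of con-2c, 0.80 without replicate 2 of si-2c and 0.99 with upper-quartile scaling, each with an adjusted p below 0.05.

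GAPDH, which makes 1,3-bisphosphoglycerate and which the study used as its reference gene in qPCR, had 10.2, 8.20 and 8.70 CPM in con-2c and 13.8, 10.5 and 8.54 in si-4c, against 8.69, 10.8 and 10.7 in con-4c and 10.8, 11.9 and 10.2 in si-2c. Its log2 fold changes of 0.16 ± 0.18 from con-2c to con-4c, 0.28 ± 0.17 from con-2c to si-2c and 0.12 ± 0.18 from con-4c to si-4c did not pass (adjusted p of 0.547, 0.264 and 0.639). With library totals the si-2c value was 0.68 and passed (adjusted p = 0.00546), and the 3 si-2c libraries lay above the 3 of con-2c. The si-4c value was -0.14 with library totals and -0.0715 without replicate 1 of si-4c. PGK1, which makes the first ATP of the payoff steps, averaged 18.9 to 23.6 CPM, and the enolase ENO1 averaged 1.70 to 2.65 CPM. Neither passed any comparison.

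PGAM1 (chr14:108822782-108832818), a phosphoglycerate mutase, went from almost no reads to a clear level and back. It had 0, 3 and 8 counts in con-2c and 0 in all 3 si-4c libraries, against 123, 89 and 75 in con-4c and 21, 11 and 30 in si-2c. The corresponding levels were 4.05, 2.95 and 2.44 CPM in con-4c, all above the 0.512, 0.295 and 0.644 CPM of si-2c, which were above all con-2c and si-4c libraries. PGAM1 rose by 4.76 ± 0.76 from con-2c to con-4c (adjusted p = 0.000167). A count of 0 allows up to 3 counts in a si-4c library, or 0.0888 CPM on average, so that con-4c was at least 35.4-fold higher than si-4c (adjusted p = 1.16e-05). The difference of 2.08 ± 0.75 between si-2c and con-2c did not pass (adjusted p = 0.0505), but it did with DESeq2 (adjusted p = 0.0197), with library totals (0.0200), without the filter on low counts (0.0379), without replicate 3 of con-2c (0.0119) and without each si-4c library in turn. Without replicate 3 of con-2c the value was 3.31.

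PKM (chr7:60971807-61032780), the pyruvate kinase that closes glycolysis, had 4.07, 2.82 and 1.69 CPM in con-2c and 2.58, 4.34 and 3.94 in si-4c, against 8.99, 8.19 and 10.2 in con-4c and 6.04, 4.50 and 6.82 in si-2c. Con-4c was above the 9 other libraries, and si-2c was above both con-2c and si-4c. PKM rose by 1.67 ± 0.28 in con-4c (adjusted p = 0.000186) and by 1.02 ± 0.28 in si-2c (adjusted p = 0.0116) against con-2c, and fell by 1.33 ± 0.28 from con-4c to si-4c (adjusted p = 0.00122). The si-2c value was 0.76 without replicate 3 of con-2c (adjusted p = 0.05001), 0.99 without replicate 1 of si-2c, 0.88 without replicate 3 of si-2c and 0.99 with upper-quartile scaling. LDHB, a lactate dehydrogenase subunit, averaged 2.74 to 3.57 CPM and passed no comparison. Glycolytic genes such as GAPDH, PGAM1, ALDOA, ENO1 and LDHB have near-identical copies in mammalian genomes, and how reads shared with such copies were counted is not given in the sources used here.

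**Figure D2:**
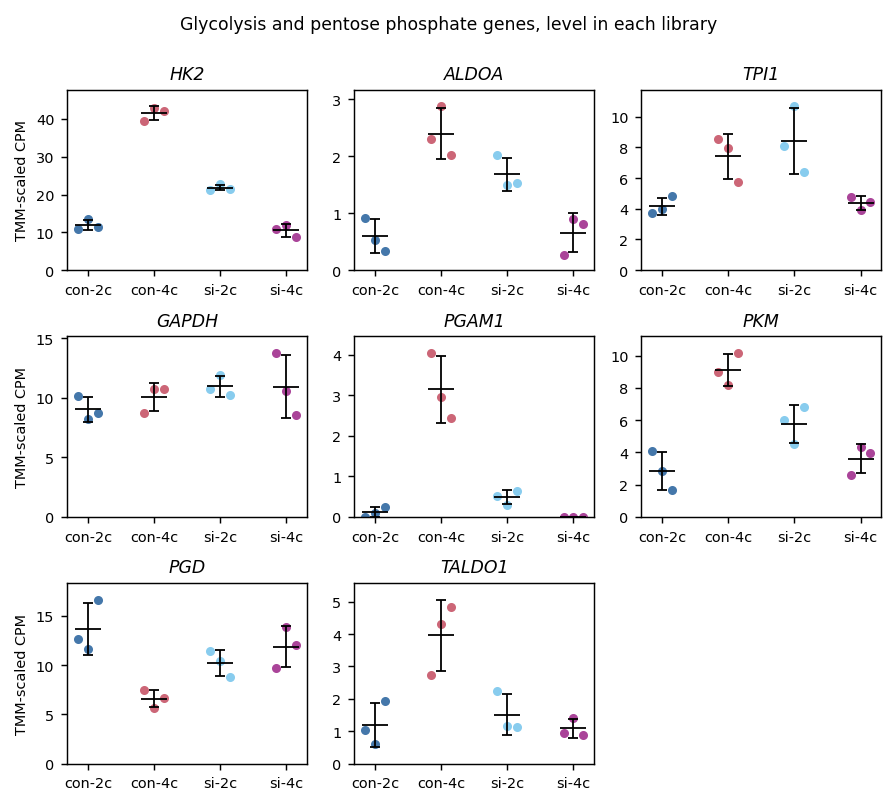
TMM-scaled CPM (y axis, from 0) of 8 genes of glycolysis and the pentose phosphate pathway in the 4 groups (x axis), with a point for each library and bars for the mean ± SD of 3 libraries. HK2, PGAM1, PKM and TALDO1 are highest in con-4c, GAPDH has group means of 9.03 to 10.97 CPM, with si-2c above con-2c and overlap in the other main comparisons, and PGD is lowest in con-4c.

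Genes that bring pyruvate into the citrate cycle split by subunit. MPC2, a subunit of the mitochondrial pyruvate carrier, averaged 37.0 CPM in con-2c and 33.1 in si-4c, against 26.9 in con-4c and 27.1 in si-2c, falling by 0.46 and by 0.45 in con-4c and si-2c and rising by 0.30 from con-4c to si-4c. PDHX (chr2:26014954-26094895), the protein that anchors the E3 enzyme to the core of the pyruvate dehydrogenase complex, had 135, 134 and 118 CPM in con-2c and 145, 153 and 144 in si-4c, against 69.9, 72.7 and 69.2 in con-4c and 70.7, 72.5 and 82.4 in si-2c. Con-2c and si-4c lay wholly above con-4c and si-2c. PDHX fell by 0.87 ± 0.08 in con-4c (adjusted p = 3.18e-07) and by 0.78 in si-2c (adjusted p = 1.87e-06), and rose by 1.06 ± 0.08 from con-4c to si-4c (adjusted p = 3.06e-08). That last value was under 2-fold with library totals (0.80) and with a filter of at least 10 CPM in 3 libraries (0.95), with an adjusted p below 0.05 in both.

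PDHA1 (chrX:15699924-15718908), the catalytic E1 subunit of the same complex, moved the other way. Its mean was 34.8 ± 0.79 CPM in con-2c and 37.4 ± 2.34 in si-4c, against 56.9 ± 2.42 in con-4c and 50.0 ± 6.84 in si-2c. It rose by 0.71 (adjusted p = 3.27e-05) and by 0.52 (adjusted p = 0.000816) in con-4c and si-2c against con-2c, and fell by 0.60 from con-4c to si-4c (adjusted p = 0.000156). The other E1 subunit, PDHB, averaged 3.06 CPM in si-2c and 4.52 to 5.40 CPM elsewhere and of the pairwise comparisons passed only si-4c against si-2c. DLAT, the E2 core enzyme, had its highest mean of 37.2 CPM in con-4c and fell by 0.57 in si-4c (25.1 CPM, adjusted p = 0.00173). DLD, the E3 enzyme, averaged 14.8 to 17.3 CPM and passed no comparison.

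PDK4 (chr9:75246956-75260134), a kinase that inactivates pyruvate dehydrogenase, had 1.65, 2.38 and 0.953 CPM in con-2c and 1.11, 1.33 and 0.717 in si-4c, against 0.691, 0.597 and 0.260 in con-4c and 0.536, 0.375 and 0.558 in si-2c. Con-2c was above con-4c and si-2c, and it overlapped si-4c. PDK4 fell by 1.68 ± 0.51 in con-4c (adjusted p = 0.0168) and by 1.75 ± 0.51 in si-2c (adjusted p = 0.0152) against con-2c, while its 1.02 ± 0.51 in si-4c against con-4c did not pass (adjusted p = 0.133). The con-4c call was lost without replicate 2 of con-2c (adjusted p = 0.0971) or replicate 3 of con-4c (0.0730), and the si-2c call without replicate 2 of con-2c (0.0946) or replicate 2 of si-2c (0.0622). PDK1 averaged 8.49 CPM in con-2c and 9.78 in si-4c, against 8.77 in si-2c and 6.02 in con-4c, and it fell by 0.50 from con-2c to con-4c (adjusted p = 0.0433) and rose by 0.70 from con-4c to si-4c (adjusted p = 0.00606). PDK2, at 1.63 to 3.12 CPM, PDK3, at 33.0 to 37.9 CPM, and the phosphatase PDP1, at 6.88 to 8.73 CPM, passed no comparison. With library totals PDP1 passed in con-4c (0.61, adjusted p = 0.0108) and si-2c (0.67, 0.00605) against con-2c. It also passed then in si-4c against con-4c (-0.54, 0.0214) and against si-2c (-0.60, 0.0123). PDK3 then passed in si-2c against con-2c (0.43, 0.00902), and in si-4c against con-4c (-0.39, 0.0172) and against si-2c (-0.58, 0.00109).

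Citrate synthase (CS, chr5:21669778-21700737), which feeds acetyl-CoA into the citrate cycle, was highest in si-2c. Its levels were 211, 193 and 221 CPM in con-2c and 230, 238 and 230 in si-4c, against 254, 268 and 260 in con-4c and 356, 317 and 310 in si-2c. The 4 groups did not overlap, in the order con-2c, si-4c, con-4c and si-2c. CS rose by 0.32 in con-4c (adjusted p = 0.00313) and by 0.65 in si-2c (adjusted p = 5.83e-06) against con-2c, and the lower level of si-4c against con-4c, at -0.17, did not pass (adjusted p = 0.104). It did with library totals (-0.42, adjusted p = 0.00162), DESeq2 (-0.21, 0.00857), the filter of at least 10 CPM in 3 libraries (-0.27, 0.00611) and only the groups compared (-0.18, 0.0174).

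Among the isocitrate dehydrogenases, IDH2, the NADP-dependent mitochondrial enzyme, had 2.55, 3.12 and 2.31 CPM in con-2c and 1.38, 3.12 and 1.85 in si-4c, against 5.76, 5.57 and 3.22 in con-4c and 3.05, 2.22 and 2.47 in si-2c. Con-4c was above all other libraries. IDH2 rose by 0.87 from con-2c to con-4c (adjusted p = 0.0397), which did not pass without any 1 con-2c library, replicate 1 or 2 of con-4c or replicate 2 of si-2c (adjusted p from 0.0508 to 0.148) or with upper-quartile scaling (0.0638), and was called with library totals (1.15) and without replicate 3 of con-4c (1.09). IDH2 fell by 1.19 ± 0.32 from con-4c to si-4c (adjusted p = 0.00686), or by 0.96 without replicate 1 of si-4c.

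The NAD-dependent enzyme is built of the catalytic subunit IDH3A with IDH3B and IDH3G. IDH3B (chr17:32955061-32960110) had 1.62, 0.624 and 2.40 CPM in con-2c and 0.570, 0.318 and 0.538 in si-4c, against 2.70, 5.07 and 6.50 in con-4c and 1.49, 0.589 and 0.772 in si-2c. The si-2c level stayed with con-2c, unlike HK2, ALDOA and PKM, and all con-4c libraries were above the other 9. IDH3B rose by 1.62 ± 0.47 from con-2c to con-4c (adjusted p = 0.0127), a call lost without replicate 2 of con-2c (adjusted p = 0.0547) or replicate 3 of con-4c (0.0761), and fell by 3.32 ± 0.52 from con-4c to si-4c (adjusted p = 8.27e-05). IDH3A averaged 57.6 CPM in con-2c and 60.6 in si-4c, against 42.4 in con-4c and 46.2 in si-2c, falling by 0.44 in con-4c (adjusted p = 0.00888) and rising by 0.51 from con-4c to si-4c (adjusted p = 0.00304). IDH3G averaged 0.959 to 1.69 CPM and passed no comparison.

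OGDH, the first enzyme of the 2-oxoglutarate dehydrogenase complex, had 1.94, 1.43 and 1.54 CPM in con-2c and 1.71, 2.52 and 2.27 in si-4c, against 5.46, 4.08 and 2.70 in con-4c and 5.02, 2.62 and 2.17 in si-2c. Con-4c and si-2c were above con-2c, and si-2c overlapped si-4c. It rose by 1.32 ± 0.35 in con-4c (adjusted p = 0.00672) and by 0.999 ± 0.35 in si-2c (adjusted p = 0.0389), the latter just under 2-fold. The si-2c value was 1.01 with DESeq2 and 1.40 with library totals, and it ran from 0.55 without replicate 1 of si-2c (adjusted p = 0.285) to 1.22 without replicate 3 of si-2c. It did not pass without any 1 con-2c library either (adjusted p from 0.0544 to 0.122). In si-4c against con-4c OGDH fell by 0.91 (adjusted p = 0.0455), which was -1.17 with library totals and ran from -1.14 without replicate 3 of con-4c to -0.64 without replicate 1 of con-4c (adjusted p = 0.219). Without any 1 si-4c library it did not pass (adjusted p from 0.0645 to 0.151). DLST, the core enzyme of the same complex, averaged 68.7 CPM in con-2c and 75.5 in si-4c against 95.1 in si-2c and 85.4 in con-4c, and rose by 0.32 in con-4c and by 0.47 in si-2c. Of the succinyl-CoA ligase subunits, SUCLG1 rose by 0.59 from con-4c to si-4c (20.9 against 13.9 CPM, adjusted p = 0.00287), SUCLG2 averaged 101 to 114 CPM and SUCLA2 28.4 to 35.5 CPM, and the latter genes passed none of the pairwise comparisons.

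FH (chr10:12404143-12431843), the fumarase that hydrates fumarate to malate, had 6.08, 9.24 and 9.38 CPM in con-2c and 7.86, 9.92 and 8.84 in si-4c, against 19.2, 21.5 and 25.4 in con-4c and 13.8, 14.1 and 14.6 in si-2c. The si-2c libraries lay between those of con-4c and those of con-2c and si-4c, with no overlap. FH rose by 1.42 ± 0.17 in con-4c (adjusted p = 4.11e-06) and by 0.78 ± 0.17 in si-2c (adjusted p = 0.00178), and fell by 1.31 ± 0.17 from con-4c to si-4c (adjusted p = 9.41e-06).

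The malate dehydrogenases parted by compartment. MDH1 (chr3:78247229-78263085), the cytosolic enzyme of the malate-aspartate shuttle, had 14.9, 19.8 and 15.9 CPM in con-2c and 21.1, 16.1 and 18.2 in si-4c, against 8.39, 8.75 and 6.27 in con-4c and 6.21, 7.34 and 7.75 in si-2c. Con-2c and si-4c overlapped and stood wholly above con-4c and si-2c. MDH1 fell by 1.11 ± 0.17 in con-4c (adjusted p = 5.52e-05) and by 1.25 ± 0.17 in si-2c (adjusted p = 2.33e-05) against con-2c, and rose by 1.24 ± 0.17 from con-4c to si-4c (adjusted p = 1.71e-05). With library totals these were -0.84, -0.85 and 0.98, under 2-fold, and the first was -0.99 without replicate 2 of con-2c and -0.98 without replicate 3 of con-4c, all with an adjusted p below 0.05. MDH2 (chr3:10120121-10132705), the mitochondrial enzyme of the citrate cycle, averaged 23.3 ± 3.40 CPM in con-2c and 20.01 ± 3.13 in si-4c, against 30.4 ± 2.63 in con-4c and 35.0 ± 2.23 in si-2c. It rose by 0.39 (adjusted p = 0.0295) and by 0.59 (adjusted p = 0.00241), and fell by 0.60 from con-4c to si-4c (adjusted p = 0.00164).

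**Figure D3:**
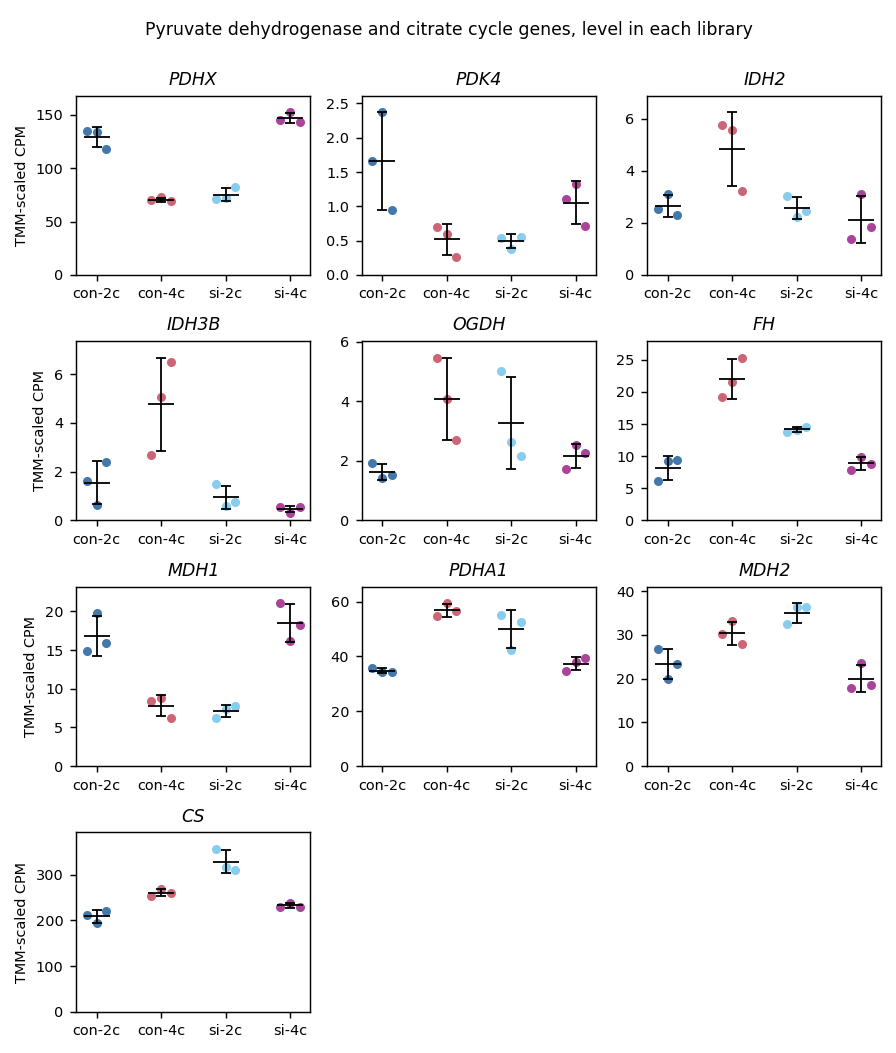
TMM-scaled CPM (y axis, from 0) of genes of the pyruvate dehydrogenase complex, its kinase PDK4 and the citrate cycle in the 4 groups (x axis), with a point for each library and bars for the mean ± SD of 3 libraries. PDHX and MDH1 are high in con-2c and si-4c, FH, PDHA1 and MDH2 are high in con-4c and si-2c, and CS is highest in si-2c at 310 to 356 CPM.

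In the pentose phosphate pathway, PGD (chr6:70675751-70692697), which makes NADPH in the oxidative branch, had 12.7, 11.7 and 16.6 CPM in con-2c and 9.69, 13.8 and 12.1 in si-4c, against 7.504, 5.70 and 6.63 in con-4c and 11.5, 10.4 and 8.80 in si-2c. Con-4c was below all other libraries, si-2c included. PGD fell by 1.05 ± 0.18 from con-2c to con-4c (adjusted p = 0.000243), or by 0.91 without replicate 3 of con-2c and 0.95 on the log2 scale without replicate 2 of con-4c, rose by 0.84 from con-4c to si-4c (adjusted p = 0.00161), and at -0.42 did not pass in si-2c (adjusted p = 0.0910). With library totals the first value was -0.78.

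The enzymes of the non-oxidative branch moved the other way. TALDO1 (chr2:464781-472836), the transaldolase, had 1.05, 0.594 and 1.94 CPM in con-2c and 0.960, 1.42 and 0.896 in si-4c, against 2.73, 4.31 and 4.84 in con-4c and 2.24, 1.15 and 1.14 in si-2c. Con-4c again lay above all other libraries, and the remaining 3 groups overlapped. TALDO1 rose by 1.73 ± 0.43 in con-4c (adjusted p = 0.00416) and fell by 1.86 ± 0.43 from con-4c to si-4c (adjusted p = 0.00250). TKT, the transketolase, averaged 5.17 CPM in con-2c and 4.86 in si-4c, against 9.54 in con-4c and 6.11 in si-2c, rising by 0.88 in con-4c (adjusted p = 0.00125) and falling by 0.97 in si-4c (adjusted p = 0.000562), while neither gene passed in si-2c against con-2c.

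Ratios of paired genes within a library do not depend on the scaling. The ratio of HK2 to HK1 counts was 4.64, 7.82 and 5.08 in con-2c and 8.76, 5.80 and 5.62 in si-4c, against 10.02, 14.8 and 19.2 in con-4c and 9.05, 9.47 and 9.17 in si-2c. The ratio of PFKM to PFKP was 0.236 to 0.368 in con-2c and 0.297 to 0.356 in si-4c, against 0.520 to 1.04 in con-4c and 0.997 to 1.33 in si-2c. ALDOC counts were 13.7 to 29.8 times those of ALDOA in con-2c and 11.6 to 39.2 times in si-4c, against 1.58 to 3.35 times in con-4c and 4.03 to 4.33 times in si-2c. For these pairs the groups did not overlap in any of the 3 main comparisons.

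Pairs from the pyruvate dehydrogenase complex and the citrate cycle were compared in the same way. The ratio of MDH1 to MDH2 counts was 0.559, 0.996 and 0.685 in con-2c and 1.18, 0.684 and 0.981 in si-4c, against 0.278, 0.264 and 0.225 in con-4c and 0.192, 0.202 and 0.214 in si-2c. PDHX counts were 3.45 to 3.88 times those of PDHA1 in con-2c and 3.63 to 4.15 times in si-4c, against 1.22 to 1.28 times in con-4c and 1.28 to 1.72 times in si-2c. These 2 pairs were added after their values were seen. The log2 ratio of IDH3B to IDH3A averaged -3.24 in con-4c, -5.38 in con-2c, -5.69 in si-2c and -6.99 in si-4c, so that si-2c overlapped con-2c. IDH3G to IDH3A overlapped between groups in each of the 3 comparisons, and SUCLG2 to SUCLA2 did in si-2c against con-2c. An exact two-sided permutation test of 3 against 3 libraries cannot go below p = 0.1, the value reached in each of the 3 comparisons by HK2/HK1, PFKL/PFKP, PFKM/PFKP, ALDOC/ALDOA, PDK4/PDK3 and the 2 added pairs. SUCLG2/SUCLA2 and IDH3B/IDH3A reached it in 2 of them, PDK1/PDK3 and PDK2/PDK3 in si-4c against con-4c alone, and IDH3G/IDH3A in none (exact p of 0.2, 0.5 and 0.2).

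**Figure D4:**
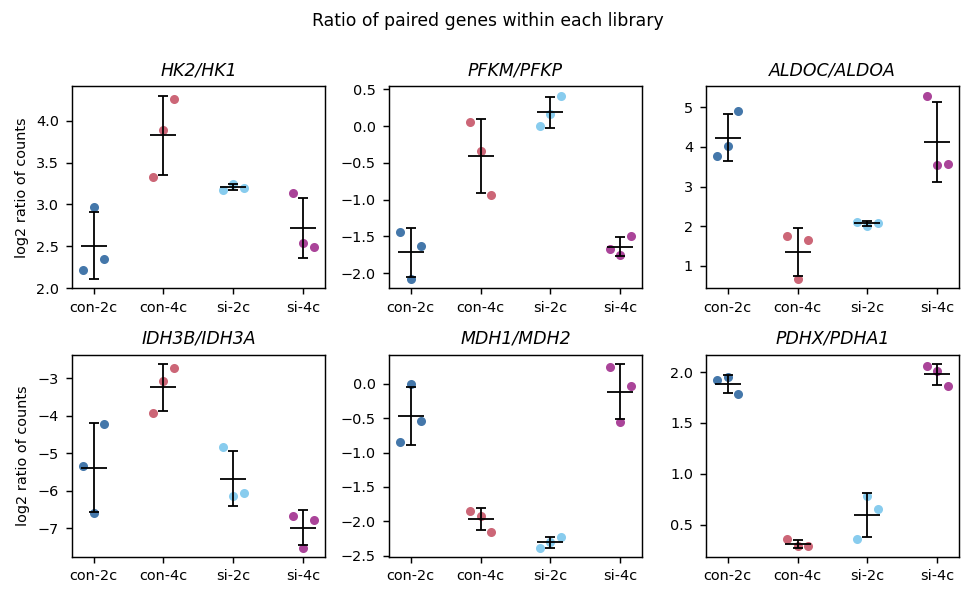
Log2 ratio of counts (y axis) of 6 gene pairs in the 4 groups (x axis), with a point for each library and bars for the mean ± SD of 3 libraries. HK2/HK1 and PFKM/PFKP are higher in con-4c and si-2c than in con-2c and si-4c, ALDOC/ALDOA, MDH1/MDH2 and PDHX/PDHA1 are lower, and IDH3B/IDH3A is high in con-4c alone, with a mean of -3.24.

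Within the embryos given si-CCNB2, the difference between title stages ran against that of the controls, and the comparisons share no library. In si-4c against si-2c, MDH1 was called higher (2.33% of members, beside 1.47% of all genes), at 1.38 ± 0.17 (adjusted p = 8.28e-06). HK2, at -1.06 (adjusted p = 8.74e-06), ALDOA, at -1.35 (adjusted p = 0.0362), and PGAM1 were called lower (6.98%, beside 11.9%), and si-2c had at least 5.44-fold more PGAM1 than si-4c. The count of members called higher was 2 without replicate 1 or 2 of si-2c and 3 without replicate 3 of si-2c (beside 1.29%, 1.48% and 1.74% of all genes), and the count called lower was 1 without replicate 3 of si-4c (beside 9.06%). ALDOA did not pass without any 1 si-2c library (adjusted p from 0.0551 to 0.118). Its call was also lost without replicate 1 or 2 of con-4c, without replicate 1 or 3 of si-4c, and with only the groups compared. At any fold 7 members rose and 11 fell (16.3% and 25.6%, beside 12.1% and 16.9% of all genes), of which MPC2, SUCLG1, PDHB and IDH3A among those that rose did not pass with library totals, MPC2 turning from 0.29 to -0.0928, and the median was -0.28 over the members and -0.13 over all genes. Leaving out each library in turn, 3 of the 7 that rose passed every time (not MPC2, SUCLG1, PDHB and IDH3A). Of the 11 that fell, 8 did (not DLST, DLAT and ALDOA). The 11 members called between the controls all had the other sign here, as did 97.3% of all genes called between the controls, and 37 of the 43 members (86.0%) had opposite signs in the 2 comparisons, beside 77.0% of all genes tested. The difference between those 2 stage differences was called for 21 members, 6 higher and 15 lower (13.95% and 34.9%, beside 9.87% and 22.5% of all genes).

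Across the title stages, no member passed the test between si-4c and con-2c. No member was called higher or lower in si-4c than con-2c, by edgeR or by DESeq2. Of all genes edgeR called 0.0333% higher and 0.3% lower, and DESeq2 0.267% and 0.795%. None of the members passed edgeR's test at any fold, as 0.106% of all genes did upward and 0.567% downward. At an unadjusted p below 0.05, SUCLG1 and PDHX were higher and IDH3B, PGAM1, DLAT and SLC2A1 lower, 2 and 4 of 43 members, beside 4.95% and 6.35% of all genes. The median log2 fold change was 0.03 over the members and -0.00 over all genes. For HK2 the difference was -0.19 ± 0.13 (adjusted p = 0.655), for MDH1 0.13 ± 0.16 (adjusted p = 0.881) and for FH 0.11 ± 0.17 (adjusted p = 0.925). In 7 members the groups did not overlap, or 16.3%, beside 14.1% of all genes. IDH3B, at -1.70 ± 0.51 (adjusted p = 0.187), SLC2A1, at -0.89 ± 0.41 (adjusted p = 0.428), and DLAT, at -0.30 (adjusted p = 0.369), lay below con-2c in all si-4c libraries. ENO1, at 0.54, PDK1, at 0.20, PDHX, at 0.19, and CS, at 0.16, lay above it (adjusted p from 0.393 to 0.776). PGAM1, at 0 counts in each si-4c library, overlapped the con-2c library that also had 0 (adjusted p = 0.196).

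Si-2c and con-4c, the other such pair, differed in 7 of 43 members at any fold, 2 higher and 5 lower in si-2c (4.65% and 11.6%). Of all 17995 genes tested, 399 were higher and 957 lower by the same rule. IDH3B, at -2.32 ± 0.48 (adjusted p = 0.00601), and PGAM1, at -2.69 ± 0.65 (adjusted p = 0.0203), were called lower in si-2c than con-4c (4.65%, beside 1.63% of all genes), of which the IDH3B call held without each library in turn. The PGAM1 call was lost without any 1 con-4c library and without replicate 1 or 2 of si-2c (adjusted p from 0.0548 to 0.139). DESeq2 called IDH3B and TALDO1 lower, beside 1.89% of all genes. No member was called higher, by edgeR or DESeq2, beside 0.161% and 0.122% of all genes. In edgeR's test 4 members (PGD, PDK1, PDK2 and CS) were higher at an unadjusted p below 0.05, beside 8.07% of all genes, as 9 were lower, beside 11.3%. Under 2-fold, HK2 was lower by 0.93 on the log2 scale (-0.93, adjusted p = 0.000148), as were TKT (-0.64, adjusted p = 0.0416) and FH (-0.63, adjusted p = 0.0238), of which TKT and FH did not pass with library totals. PGD was higher at 0.63 (adjusted p = 0.0465) and CS at 0.33 (adjusted p = 0.0125). Of these 5, HK2 alone passed without each library in turn.

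**Figure D5:**
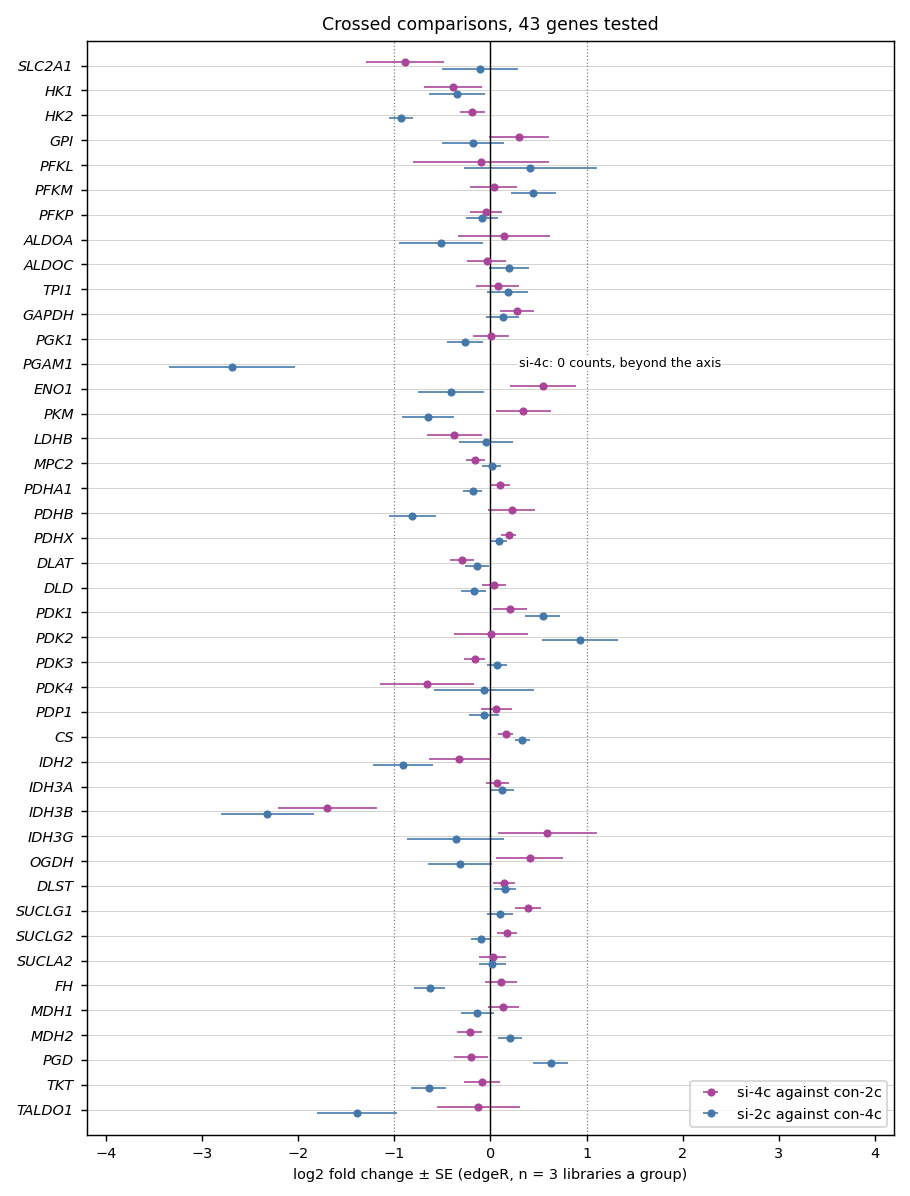
Log2 fold change with its standard error (x axis, edgeR, 3 libraries a group) of the 43 genes tested (y axis) for si-4c against con-2c (purple) and si-2c against con-4c (blue), with dotted lines at a 2-fold difference. Most genes lie near 0 in both, HK2 lies at -0.93 and IDH3B at -2.32 in si-2c against con-4c, and the si-4c value of PGAM1 lies beyond the axis.

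Other genes of these pathways were taken from a list of 65, of which 60 were in the table and 48 were tested. From con-2c to con-4c, 6 were called higher and 0 lower, with 7 higher and 11 lower at any fold. These were 12.5% called higher, beside 14.4% of all genes, and 14.6% and 22.9% at any fold, beside 20.7% and 15.1%. The 11 that passed the adjusted p in the lower direction fell by less than 2-fold. In si-2c against con-2c 6 were called higher and 1 lower (12.5% and 2.08%, beside 10.7% and 1.8%), and in si-4c against con-4c 1 was higher and 5 lower (2.08% and 10.4%, beside 3.12% and 15.8%). At any fold 7 rose and 7 fell in si-2c (14.6% each, beside 16.6% and 12.3%), and 13 rose and 7 fell in si-4c (27.1% and 14.6%, beside 15.1% and 21.7%). The transcription factor gene MYC, which drives glycolytic genes in many cells, had 0, 7 and 8 counts in con-2c and 0, 0 and 9 in si-4c, against 311, 270 and 353 in con-4c and 240, 194 and 250 in si-2c. It rose by 6.03 ± 0.61 in con-4c (adjusted p = 6.18e-07) and by 5.13 ± 0.60 in si-2c (adjusted p = 5.93e-06) against con-2c, and fell by 6.79 ± 0.65 from con-4c to si-4c (adjusted p = 3.33e-07).

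Succinate dehydrogenase carries out the step before fumarase and belongs to the respiratory chain, and its genes were picked out after their values were seen. SDHB, its iron-sulfur subunit, had 780, 907 and 831 CPM in con-2c and 684, 612 and 628 in si-4c, against 439, 463 and 443 in con-4c and 419, 447 and 375 in si-2c. SDHB fell by 0.91 ± 0.08 in con-4c (adjusted p = 2.11e-07) and by 1.02 ± 0.08 in si-2c (adjusted p = 9.35e-08) against con-2c, and rose by 0.52 ± 0.08 from con-4c to si-4c (adjusted p = 0.000103). The membrane subunit SDHC fell by 0.82 and by 0.60 and rose by 0.82, and SDHD fell by 0.79 in con-4c and rose by 0.97 in si-4c, while its -0.17 in si-2c did not pass (adjusted p = 0.336). SDHA, the flavoprotein subunit, averaged 15.1 to 18.4 CPM and passed none of the 3 comparisons.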

How the data were processed

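The authors deposited a table of counts per gene with gene symbols for 12 SMART-seq libraries. The submitters' processing notes name cutadapt 1.9, HISAT2 2.2.1, StringTie 2.1.6, DESeq2 and edgeR and the build Sscrofa11.1, without their roles, and counts made through StringTie may be rounded estimates. There were 0 other columns of per-sample values. Fold-change and p-value columns were not used.

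Genes with enough counts (filterByExpr) went into edgeR 4.0.16 under R 4.3.3 (TMM factors 0.852 to 1.21, glmQLFit and glmQLFTest, 1 model of 4 group means) over all 12 libraries. The biological coefficient of variation was 27.3% (common dispersion 0.0745). The threshold was an adjusted p of 0.05, with a log2 fold change of 1 in size for a call. The test was run on simulated data first. Replicate counts within groups differed by more than sampling noise. Ratios of paired genes used 0.5 added to each count. Members called between con-4c and con-2c or between si and control libraries, and GAPDH, are given by library. Other pathway genes are named where called in con-4c against con-2c and averaging 10 CPM or more in the group where they are higher, except the succinate dehydrogenase genes. The members and lists were chosen with earlier results of these data known. Coordinates are those of the RefSeq gene of the same symbol (Sscrofa11.1), found for 44 of the 44 members in the table. Transcript lengths were not used here, so a ratio of 2 genes' counts is compared between groups and does not give their relative levels. Intervals and limits from a count of 0 cover counting error only. Alternatives were library totals, upper-quartile scaling, DESeq2 1.42.0, no filter, a filter of 10 CPM, only the groups compared, a replicate block and leaving out each library. Following each pass at any fold through them was added after the data were seen.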

Additional observations from a re-analysis of the deposited data

Results flagged for a closer look

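By edgeR's test of the difference of differences, si minus control was called different under the titles 4c and 2c for 21 of 43 members tested. The values of these 21 are the si minus control log2 difference under 4c less that under 2c. It was negative for 15 members: HK1 at -1.07, HK2 at -2.85, PFKM at -1.37, ALDOA at -3.35, TPI1 at -1.77 and PKM at -2.35 in glycolysis, PDHA1 at -1.13 in the pyruvate dehydrogenase complex, IDH2 at -1.15, IDH3B at -2.62, OGDH at -1.91, FH at -2.09 and MDH2 at -1.19 in the citrate cycle, and TKT at -1.21 and TALDO1 at -2.20 in the pentose phosphate pathway. The fitted value of PGAM1, -11.85, rests on 0 counts in si-4c and is no measure of size. It was positive for 6 members: PFKP at 1.78, ALDOC at 1.34, PDHX at 1.84, PDK4 at 2.78, MDH1 at 2.49 and PGD at 1.26. Of these calls PGD and ALDOC did not pass with library totals (0.62 and 0.68, adjusted p of 0.0851 and 0.0773). HK1 (adjusted p = 0.0481) and IDH2 (adjusted p = 0.0441) did not pass with upper-quartile scaling or without most single libraries, and HK1 also not without the filter or with the replicate block. These calls are read against 22.5% of all genes called negative and 9.87% called positive in the same test. At any fold 29 members passed it, 18 negative and 11 positive (41.9% and 25.6%), beside 4907 and 3275 of the 17995 genes tested. Groups of 3 libraries were too small for a test of single values that stand apart within a group.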

How the results depend on the processing

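A filter of at least 10 CPM in 3 libraries left 21 members and 6674 genes to test, and the counts called higher and lower became 2 and 1 from con-2c to con-4c, 0 and 1 from con-2c to si-2c, and 1 and 2 from con-4c to si-4c, beside 10.2% and 3.72%, 6.92% and 2.203%, and 3.15% and 9.99% of all genes. It left 1 lower from si-2c to si-4c, 0 lower from con-4c to si-2c and 5 lower in the difference of differences, beside 6.86%, 3.06% and 17.0%. With library totals, 1 member was called lower from con-2c to con-4c, 9 higher and 1 lower from con-2c to si-2c, 0 higher and 13 lower from con-4c to si-4c, and 0 higher and 9 lower from si-2c to si-4c. Of all genes that scaling called 1.27% lower, 16.8% higher and 0.322% lower, 1.28% higher and 18.7% lower, and 0.278% higher and 17.2% lower in the same order. Si-2c against con-2c had 1 member called higher with upper-quartile scaling and 5 with DESeq2, beside 10.5% and 12.6% of all genes. Without 1 library, the counts were 1 to 3 lower from con-2c to con-4c, 1 to 4 higher and 1 to 3 lower from con-2c to si-2c, 1 to 3 higher and 1 to 3 lower from si-2c to si-4c, and 1 to 3 lower from con-4c to si-2c. Of all genes these fits called 2.84% to 3.46% lower, 8.22% to 10.3% higher and 1.43% to 1.82% lower, 1.17% to 1.74% higher and 8.96% to 11.6% lower, and 1.19% to 1.58% lower. The cause was not tested, apart from the fewer genes under the filter.

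Among the members given by library and CCNB2, values that changed sign had not passed the test. Of the other members, MPC2 in si-4c against si-2c (0.29) and SUCLA2 in the difference of differences (0.60) had passed and were -0.0928 and -0.0692 with library totals. GAPDH in si-4c against con-4c was -0.139 with library totals and -0.0715 without replicate 1 of si-4c, with a range of -0.0715 to 0.277 without 1 library. IDH2 in si-2c against con-2c was -0.04, but 0.36 with library totals, 0.0858 without replicate 2 of con-2c and 0.05 without replicate 2 of si-2c, in a range of -0.181 to 0.0858. TALDO1 there was -0.0616 without replicate 1 of si-2c, in a range of -0.0616 to 0.883. CCNB2 in con-4c against con-2c was 0.03, but -0.0648 with upper-quartile scaling and -0.0305 and -0.0288 without replicate 3 of con-2c or replicate 1 of con-4c, in a range of -0.0305 to 0.0976.

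Replicate numbers did not pair the libraries. Same-numbered libraries had correlations from -0.0495 to 0.0290 over 18 pairs, and 3 of 12 libraries were most like those of their own number. With the replicate block every count stayed within 1.5 times, and TPI1 in si-2c against con-2c was 0.99. With the block ALDOA in si-4c against si-2c (adjusted p = 0.0593) and HK1 in the difference of differences (0.0720) were no longer called. At any fold OGDH in si-4c against con-4c (0.0597), PDK1 in con-4c against con-2c (0.0590), MPC2 in si-4c against si-2c (0.0574), and PGD (0.0784) and TKT (0.0593) in si-2c against con-4c no longer passed, nor did PDK1 in the difference of differences (0.0647), while ALDOC in si-4c against si-2c did (0.0190). Members such as PFKL, PDK4, ALDOA and IDH3B rest on few counts per library, which limits how small a difference could be seen.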
